A study of Mus musculus with 6 samples.

Results

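Lysosomes are the acidic compartments in which cells break down proteins, glycans and lipids that arrive by endocytosis or autophagy, and in fatty liver they are one of the routes by which stored lipid is hydrolysed. Most of their enzymes are soluble hydrolases, a shell of glycosylated membrane proteins lines the compartment, and the transcription factors TFEB and TFE3 bind a palindromic motif, the CLEAR element, in the promoters of many lysosomal genes. The 31 genes described here were chosen by symbol from a list of such genes: 7 proteases, 11 glycan-degrading enzymes, 4 genes for lipid breakdown and its activator proteins, 6 membrane proteins, and 3 genes counted as regulators, which are Tfeb, Tfe3 and the growth factor precursor gene Grn. All 31 were among the 22851 genes of the deposited matrix and all 31 passed the filter on low values, namely a level over 1 in 3 or more libraries, met by 10743 genes.

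The values come from livers of male C57BL/6J mice, an inbred strain, and every library is from an animal on a high-fat diet (HFD), so no lean control enters the comparison. The control group, vehicle, has libraries 1, 2 and 4. The treated group, libraries 1, 3 and 4, received ONX-0914, an inhibitor of the immunoproteasome subunit PSMB8, by subcutaneous injection at 10 mg/kg on alternate days over 6 weeks. There are 3 libraries per group, whereas the design text speaks of 2 biological replicates per group; the labels do not say which libraries are separate animals, so the p-values reflect how far these libraries spread, which may be technical. The diet's composition and length are not given in the sources used here. Values are in FPKM, a read level corrected for transcript length and for library size. The comparison asks which liver transcripts differ under the drug, and the study's title names hepatic fat, HDAC2, SREBP1 and PSMB8.

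Facts of the whole matrix bear on every value below. Summed FPKM ran from 993264 to 1074027 in vehicle and from 1041391 to 1247789 in treated libraries. Read totals were not given. Short genes with a single counted read placed the depth at an estimated 12.6 to 18.6, in units of 1e+06 reads per library. That estimate is rough, since it rests on 12 to 21 genes per library and on a search window that bounded it in advance. Values per library are always given in the order vehicle 1, 2 and 4, then ONX-0914 1, 3 and 4. Log2 fold changes are the treated minus the vehicle mean of log2(FPKM + 1). The median tested gene was at -0.64, and limma, with Benjamini-Hochberg adjustment, called 43.5% of the tested genes lower and 2.56% higher at an adjusted p under 0.05. Many results, though not all, are therefore repeated after median-ratio scaling, in which a library is divided by its median ratio to the geometric mean of all 6 and the median gene comes to 0.00339, with 13.7% lower and 14.3% higher. Long transcripts were lower than short ones under treatment: between the 25% of genes with the longest and the 25% with the shortest transcripts the deviation from vehicle differed by -0.95, -0.25 and -0.99 in the treated libraries. A further repeat, after length correction, takes that trend out of each library (11.5% lower, 9.53% higher). ONX-0914 3 stood apart, with log2 values correlating at 0.9487 to 0.9579 with the vehicle libraries and at 0.9456 and 0.954 with the other treated ones. The hepatocyte gene Alb reached 44524 to 47971 FPKM in vehicle and 17654 to 36265 in treated libraries, above every gene described here. Alb did not pass the test (limma adjusted p = 0.0669). Of 10 hepatocyte markers 3 fell, 2 rose and 5 did not pass, and after median-ratio scaling 0 were lower and 3 higher. Bulk RNA cannot tell fewer cells of a type from less RNA per cell.

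The CLEAR core shows which of these genes carry the letters that TFEB and TFE3 bind. RefSeq promoter windows of GRCm38.p6, from 250 bases before to 50 bases after an annotated start, were found for 28 of the 31 genes. The letters TCACGTGA, which read the same on both strands, lay in the windows of 5 members, against 1.12% of all genes with a window. The inner letters CACGTG, which TCACGTGA contains, lay in 10 members, against 8.09% of all genes. The members were chosen as lysosomal genes, many of which carry this element, so these shares are a description and no test. The stretches that hold TCACGTGA are shown with those letters in capitals, each with its place in GRCm38.p6 and its strand, because they mark members with the CLEAR core on both sides of the test reported further on.
Ctsd, chr7:142387908-142387937, minus strand: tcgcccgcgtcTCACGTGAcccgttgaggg
Gla, chrX:134601215-134601244, minus strand: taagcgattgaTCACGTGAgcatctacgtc
Gla, chrX:134601182-134601211, minus strand: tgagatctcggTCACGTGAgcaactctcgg
Cln3, chr7:126583340-126583369, minus strand: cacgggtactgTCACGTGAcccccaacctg
Mcoln1, chr8:3500462-3500491, plus strand: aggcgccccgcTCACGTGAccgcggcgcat
Ctsa, chr2:164833749-164833778, plus strand: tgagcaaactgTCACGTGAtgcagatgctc
Ctsa, chr2:164833766-164833795, plus strand: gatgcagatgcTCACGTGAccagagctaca
Lamp1 had CACGTG 4 times in the 60 bases shown next, which start 66 bases before its annotated start, with those letters in capitals.
Lamp1, chr8:13159095-13159154, plus strand: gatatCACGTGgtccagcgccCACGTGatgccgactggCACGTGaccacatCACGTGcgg

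The 4 lipid-breakdown genes were lower in all 3 treated libraries than in any vehicle library, and Lipa had the largest fall of the 31. As a group, 16 of the 31 genes (51.6%) fell and none rose with ONX-0914, beside 43.5% and 2.56% of all tested genes. The 16 include Ids, which met the filter on low values only through the vehicle libraries. The members' median log2 fold change was -0.70, close to the -0.64 of all tested genes. At an unadjusted p under 0.05 limma likewise had 16 lower and 0 higher. After median-ratio scaling 6 were lower and 6 higher, with a median of 0.12, beside 13.7% and 14.3% of all tested genes. After length correction 6 were lower and 4 higher, with a median of 0.01, beside 11.5% and 9.53% of all tested genes. The members' longest coding transcripts had a median of 2969 bases, against 2893 for all tested genes. That median was 3070.5 bases in the 16 called members and 2560 in the 15 others, and the part of length in which members were called was not tested. In 16 of the 31 the groups did not overlap with treated values lower, a pattern seen in 53.5% of all tested genes, and 0 of the 31 were apart in the other direction, against 4.93%. These shares lie near those of the whole matrix, so the count is no result about the list as such, and what follows is how its members differed from each other.

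**Figure D1:**
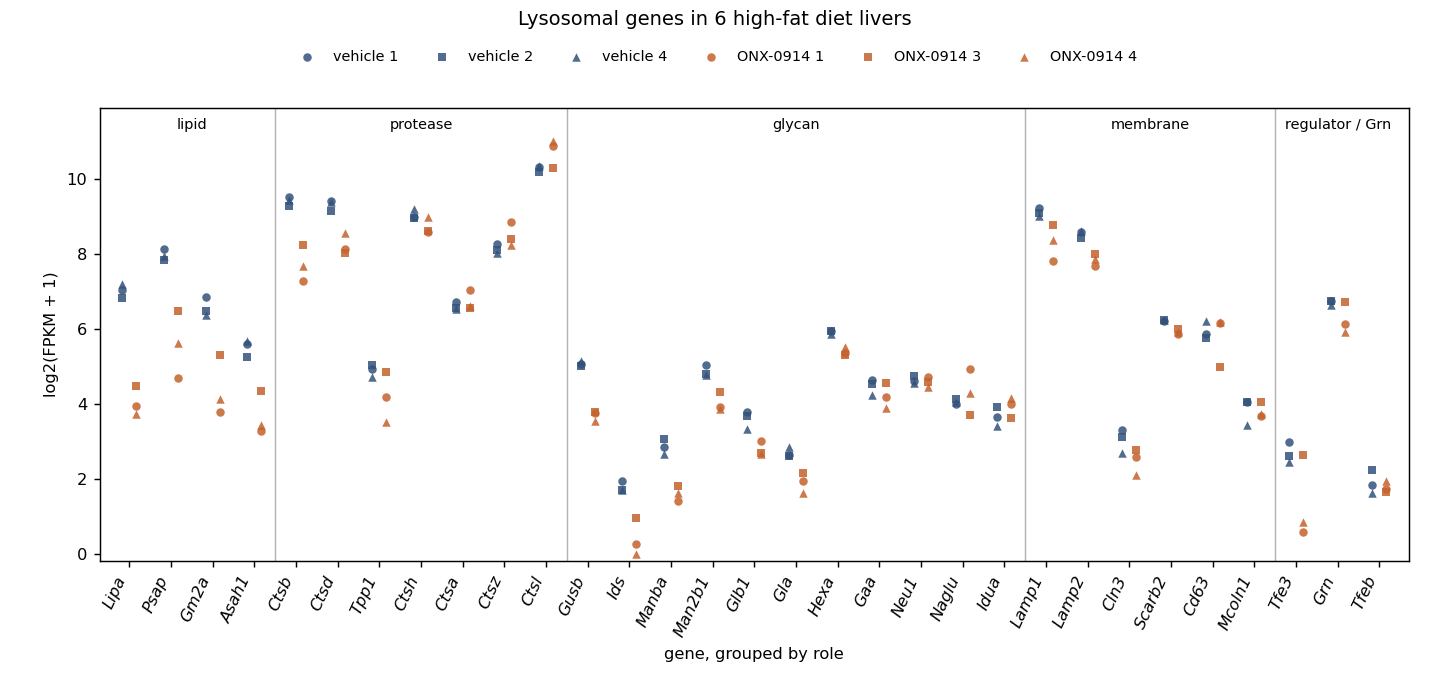
Levels of the 31 lysosomal genes, as log2(FPKM + 1) on the vertical axis, in 3 vehicle libraries (blue) and 3 ONX-0914 libraries (orange), each library with its own marker and the genes grouped by role. The treated points of Lipa, Psap, Gm2a and Asah1 lie below all their vehicle points, while those of Ctsl, Ctsz and Tfeb overlap with vehicle.

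The count of falls was smaller or larger with single libraries left out. Without vehicle 1, 2 or 4 limma called 9, 10 and 9 members lower, where 24.1%, 26.4% and 27.6% of all tested genes were. Without ONX-0914 1, 3 or 4 it called 12, 19 and 10 lower, where 29.8%, 60.6% and 28.2% of all were. Without ONX-0914 3 it also called 1 member higher, Ctsl, against 6.89% of all. Set alone against vehicle, ONX-0914 3 gave 13 lower and 0 higher, against 27.9% and 2.88%; wherever that library is taken alone, only vehicle supplies a spread, which 1 treated library is taken to share. The calls of Gla, Hexa, Lamp1 and Tfe3 were lost without any one library other than ONX-0914 3, those of Glb1 and Man2b1 without vehicle 1, 2 or 4 or ONX-0914 4, and that of Lamp2 without vehicle 1 or 4, all still negative with limma adjusted p from 0.05 to 0.17. Without ONX-0914 3, Tpp1, Cln3 and Grn gained a call. Only Ctsb, Lipa, Psap, Asah1 and Gm2a were called lower in all 19 settings run, the deposited values and that single-library comparison included, and no member was called higher in all of them. Across the genes tested in every setting, 8.61% were lower and 0.623% higher in all 19.

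Lipa encodes lysosomal acid lipase, which hydrolyses cholesteryl esters and triglycerides that reach the lysosome. The gene lies on chromosome 19 from 34492318 to 34527474 (GRCm38, GENCODE M21). Lipa was at 131, 112 and 146 FPKM under vehicle against 14.4, 21.4 and 12.2 in the treated libraries. The highest treated value was thus far below the lowest vehicle value. The mean went from 129.6 ± 17.1 to 16.0 ± 4.81 FPKM (SD, n = 3 each), an 8.1-fold lower level, with a log2 fold change of -2.97 (limma adjusted p = 0.000795, SE 0.25). Of all tested genes, 0.428% had a lower log2 fold change. Lipa was at -2.18 after median-ratio scaling (limma adjusted p = 0.0037) and at -2.23 after length correction (adjusted p = 0.00174). ONX-0914 3 alone stood at -2.53 against vehicle on the log2 scale.

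Psap encodes prosaposin, the precursor that is cut into the saposins, small proteins that present sphingolipids to their hydrolases. It lies on chromosome 10 from 60277627 to 60302597. Psap was at 282, 231 and 247 FPKM under vehicle against 24.7, 88.4 and 48.1 in the treated libraries. ONX-0914 3 had the highest treated value, still below every vehicle library. The log2 fold change was -2.39 (limma adjusted p = 0.00257, SE 0.38), or -1.58 after median-ratio scaling (adjusted p = 0.0166) and -1.70 after length correction.

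Gm2a encodes the activator that lifts gangliosides from the membrane for β-hexosaminidase A, and lies on chromosome 11 from 55098115 to 55113029. Gm2a was at 115, 88.9 and 82.1 FPKM under vehicle against 12.6, 38.7 and 16.6 in the treated libraries, again without overlap. The log2 value changed by -2.17 (limma adjusted p = 0.00303, SE 0.37), or -1.37 after median-ratio scaling. Asah1 encodes acid ceramidase, which splits ceramide into sphingosine and a fatty acid, and lies on chromosome 8 from 41340197 to 41374773. Asah1 was at 47.3, 36.9 and 49.8 FPKM under vehicle against 8.73, 19.3 and 9.85 in the treated libraries. Its log2 fold change was -1.81 (limma adjusted p = 0.00294, SE 0.30), or -1.04 after median-ratio scaling. For the 4 lipid genes together the median log2 fold change was -2.28 as deposited, -1.48 after median-ratio scaling and -1.50 after length correction. All 4 were called lower in each, where 43.5%, 13.7% and 11.5% of all tested genes were.

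**Figure D2:**
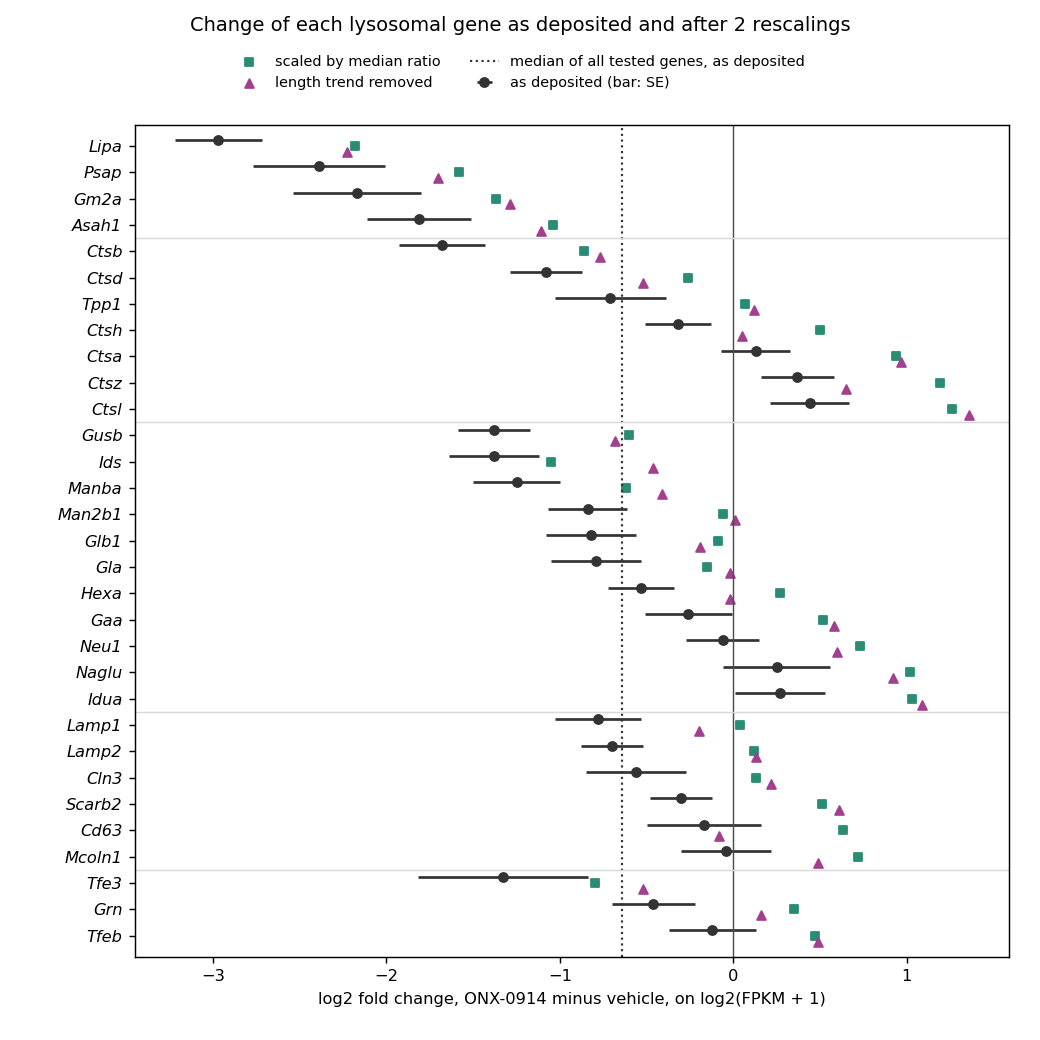
Log2 fold change (ONX-0914 minus vehicle, horizontal axis) of each of the 31 genes, as deposited (black, bar: 1 SE), after median-ratio scaling (green squares) and after length correction (purple triangles), and the dotted line marks the median of all tested genes at -0.64. Lipa, Psap, Gm2a, Asah1 and Ctsb stay left of 0 in all 3, whereas Ctsl, Ctsz, Ctsa, Idua and Naglu stay right of 0.

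The 7 proteases moved apart: Ctsb and Ctsd fell, and 5 did not pass the test, where 43.5% of all tested genes fell. Ctsb encodes cathepsin B, an abundant cysteine protease of liver, on chromosome 14 from 63122462 to 63145923. Ctsb was at 741, 626 and 695 FPKM under vehicle against 156, 303 and 206 in the treated libraries, with no overlap. The log2 value changed by -1.68 (limma adjusted p = 0.00211, SE 0.25), or -0.86 after median-ratio scaling (adjusted p = 0.029) and -0.77 after length correction (adjusted p = 0.0243). Ctsd encodes cathepsin D, the main aspartic protease of the lysosome. It was at 685, 570 and 673 FPKM under vehicle against 281, 262 and 379 in the treated libraries, again without overlap. Its log2 fold change of -1.08 (limma adjusted p = 0.00449, SE 0.21) did not pass after median-ratio scaling (-0.26, adjusted p = 0.533) or after length correction (-0.52, adjusted p = 0.131).

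Cathepsin L, a cysteine endopeptidase, is encoded by Ctsl, on chromosome 13 from 64359337 to 64370890, and it had the highest level of the 31 genes in every library. Ctsl was at 1292, 1177 and 1301 FPKM under vehicle against 1890, 1266 and 2066 in the treated libraries. ONX-0914 3 lay within the vehicle range and the other treated libraries above it. The log2 fold change of 0.44 (SE 0.23) did not pass as deposited (limma adjusted p = 0.136). Without ONX-0914 3 it was 0.65 and passed (limma adjusted p = 0.00719), and in ONX-0914 3 alone against vehicle it was 0.01. After median-ratio scaling it passed at 1.26 (adjusted p = 0.0311), where 14.3% of all genes were higher. After length correction it passed at 1.36 (adjusted p = 0.0259). That last value depends on the transcript length used: the longest annotated coding transcript of Ctsl is 6168 bases, and with the median length of its coding transcripts, 834 bases, the value was 0.77 (limma adjusted p = 0.0447).

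Ctsz, which encodes the carboxypeptidase cathepsin Z, was at 305, 275 and 262 FPKM under vehicle against 463, 341 and 302 in the treated libraries, so that ONX-0914 4 lay within the vehicle range. The log2 fold change of 0.37 did not pass as deposited (limma adjusted p = 0.17) and passed after median-ratio scaling at 1.19 (adjusted p = 0.0185). Ctsa, which encodes the protective protein that holds neuraminidase and β-galactosidase in a complex, was at 105, 93.9 and 91.8 FPKM under vehicle against 131, 93.5 and 96.8 in the treated libraries. It had a log2 fold change of 0.13 (limma adjusted p = 0.619), and of 0.94 after median-ratio scaling (adjusted p = 0.0324). Ctsh, whose product is an aminopeptidase, and Tpp1, the tripeptidyl peptidase gene, had log2 fold changes of -0.32 and -0.71 (limma adjusted p = 0.201 and 0.0963). Tpp1 passed without ONX-0914 3, at -1.04, and was at -0.05 in that library alone.

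The members' unequal change can be read within each library, where library scaling cancels. The trend with transcript length does not cancel there. Hexa (1996 bases) is shorter than Gm2a (4127 bases). Ctsl and Gaa are shorter than Ctsb and Lipa by median coding transcript but longer by the longest one. The part of length in these shares and ratios was not tested. All were chosen after the values were seen and carry no test, and not all of them separated the groups. Ctsl made up 22.6%, 23% and 23.5% of the summed FPKM of the 31 genes under vehicle and 45.0%, 32.3% and 45.1% in the treated libraries. The 4 lipid genes made up 10.1%, 9.14% and 9.46% in vehicle and 1.44%, 4.28% and 1.90% in treated libraries in the same order. The ratio of Ctsl to Ctsb was 1.74, 1.88 and 1.87 under vehicle and 12.1, 4.18 and 10.0 in the treated libraries. In each of these the groups did not overlap, and ONX-0914 3 was the treated library nearest to vehicle. Hexa and Gm2a, whose products act together on ganglioside, stood at a ratio of 0.531, 0.682 and 0.70 in vehicle and of 3.17, 0.995 and 2.68 in treated libraries. The ratio of Gaa to Lipa, between the lysosomal enzymes for glycogen and for neutral lipid, was 0.182, 0.196 and 0.122 in vehicle and 1.18, 1.05 and 1.12 in treated libraries. Groups overlapped in the ratios of Ctsa to Neu1 (3.67 to 4.44 in vehicle, 4.10 to 5.14 in treated libraries), Lamp1 to Lamp2 (1.30 to 1.61 and 1.10 to 1.74) and Tfeb to Tfe3 (0.368 to 0.715 and 0.407 to 4.64).

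**Figure D3:**
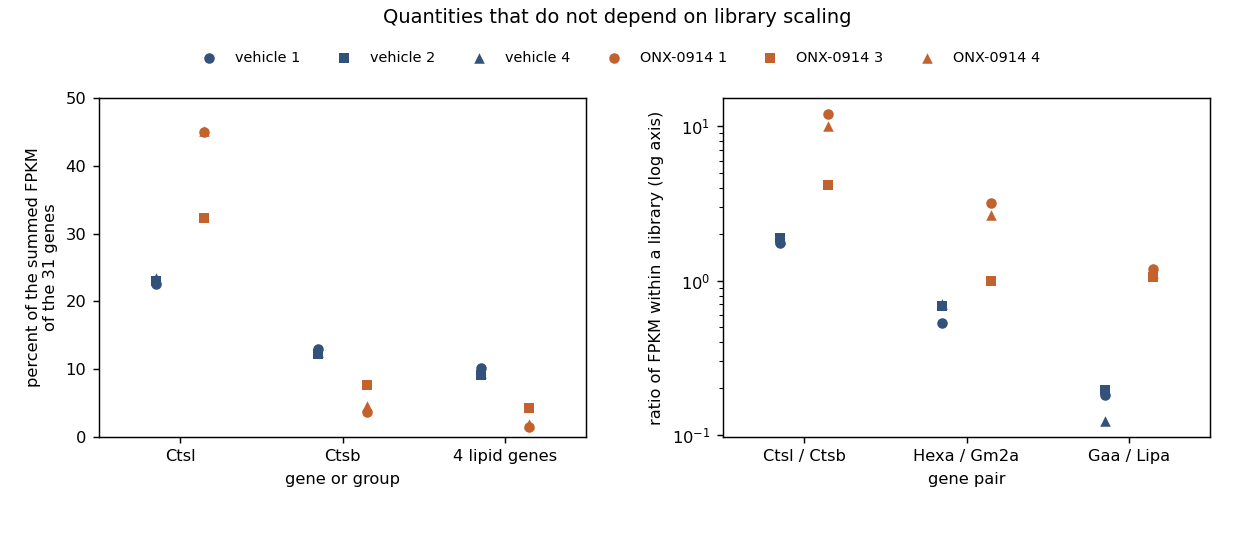
Left: share (percent) of the summed FPKM of the 31 genes taken by Ctsl, by Ctsb and by the 4 lipid genes in each library. Right: ratio of FPKM between paired genes on a log axis. Blue marks vehicle and orange ONX-0914. Ctsl takes 22.6% to 23.5% in vehicle and 32.3% to 45.1% in treated libraries, and all 3 ratios are higher in each treated library than in any vehicle library.

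Of the 11 glycan-degrading enzymes 7 fell (63.6%) and 4 did not pass, with a median log2 fold change of -0.79, beside 43.5% lower and a median of -0.64 for all tested genes. After median-ratio scaling 1 of the 11 was lower and 2 were higher, with a median of -0.06, beside 13.7% and 14.3% of all tested genes. Gusb, the β-glucuronidase gene, was at 32.4, 31.1 and 34.4 FPKM under vehicle against 12.5, 12.8 and 10.6 in the treated libraries, a tight fall in every treated library. Its log2 fold change was -1.38 (limma adjusted p = 0.00218, SE 0.21). It passed in 18 of the 19 settings, with -0.60 (limma adjusted p = 0.0592) after median-ratio scaling as the exception. Ids encodes iduronate sulfatase, which starts the breakdown of dermatan and heparan sulfate. Ids was at 2.87, 2.23 and 2.24 FPKM under vehicle, at 0.19 and 0.92 in ONX-0914 1 and 3, and is listed at 0 in ONX-0914 4. The log2 fold change of -1.38 (limma adjusted p = 0.00426, SE 0.26) came from low levels. Ids met the filter on low values only through the vehicle libraries, as every treated value was under 1. A fall was thus favoured in advance, and its calls, counted among the 7 falls above, are a description only. Ids passed after median-ratio scaling (-1.05, limma adjusted p = 0.0225) and did not pass after length correction (-0.46, adjusted p = 0.0871).

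Manba, the β-mannosidase gene, was at 6.15, 7.34 and 5.36 FPKM under vehicle against 1.63, 2.48 and 2.06 in the treated libraries, with a log2 fold change of -1.25 (limma adjusted p = 0.00527, SE 0.25) and of -0.62 after median-ratio scaling (adjusted p = 0.0544). Man2b1, the α-mannosidase gene, was at 31.9, 27.1 and 26.3 FPKM in vehicle and at 14.0, 19.0 and 13.6 in treated libraries in the same order. Its log2 fold change was -0.84 (limma adjusted p = 0.0163), with -0.06 after median-ratio scaling (adjusted p = 0.819) and 0.01 after length correction. Glb1, which encodes β-galactosidase, was at 12.8, 11.8 and 9.09 FPKM in vehicle and at 7.03, 5.41 and 5.28 in treated libraries, a log2 fold change of -0.82 (limma adjusted p = 0.0277), and Glb1 was at -0.09 after median-ratio scaling. All of these had groups that did not overlap, a pattern with lower treated values in 53.5% of all tested genes.

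Gla, the α-galactosidase A gene, was at 5.18, 5.09 and 6.23 FPKM under vehicle against 2.83, 3.45 and 2.06 in the treated libraries, with a log2 fold change of -0.79 (limma adjusted p = 0.0314). It was at -0.15 after median-ratio scaling (limma adjusted p = 0.607) and turned to 0.05 when quantile normalized. Hexa, which encodes the α subunit of β-hexosaminidase A, was at 61.1, 60.6 and 57.5 FPKM in vehicle and at 40.02, 38.5 and 44.5 in treated libraries. The log2 fold change of -0.53 (limma adjusted p = 0.0421, SE 0.19) turned to 0.27 after median-ratio scaling (adjusted p = 0.399). Gm2a, the gene of its activator, had the larger fall.

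Gaa, the gene of the lysosomal enzyme that degrades glycogen, was at 23.8, 21.95 and 17.8 FPKM under vehicle against 17.03, 22.4 and 13.7 in the treated libraries, with groups that overlap and a log2 fold change of -0.26 (limma adjusted p = 0.405). It was called in none of the 19 settings. Neu1, which encodes neuraminidase, ranged from 22.7 to 25.6 FPKM in vehicle and from 21.0 to 25.4 in treated libraries (-0.06, limma adjusted p = 0.836). After median-ratio scaling Neu1 passed as higher, at 0.73 (adjusted p = 0.0403). Naglu and Idua, enzymes of heparan sulfate breakdown, had log2 fold changes of 0.25 and 0.27 (limma adjusted p = 0.52 and 0.405), and neither passed in ONX-0914 3 alone (-0.35 and -0.02, adjusted p = 0.188 and 0.951). Idua passed after median-ratio scaling at 1.03 (adjusted p = 0.0353), whereas Naglu, at 1.02, did not (adjusted p = 0.0755).

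Of the 6 membrane proteins, Lamp1 and Lamp2 fell as deposited and the other 4 did not pass, where 43.5% of all tested genes fell. Lamp1 and Lamp2 encode the most abundant glycoproteins of the lysosomal membrane, and LAMP2 also serves chaperone-mediated autophagy. Lamp1 was at 595, 552 and 514 FPKM under vehicle against 225, 441 and 334 in the treated libraries, all below vehicle. Its log2 fold change was -0.78 (limma adjusted p = 0.0315, SE 0.25), and -0.32 in ONX-0914 3 alone (adjusted p = 0.194). Lamp2 was at 388, 343 and 395 FPKM in vehicle and at 206, 254 and 233 in treated libraries, with a log2 fold change of -0.70 (limma adjusted p = 0.0141, SE 0.18). Neither passed after median-ratio scaling, with Lamp1 at 0.04 (adjusted p = 0.916) and Lamp2 at 0.12 (adjusted p = 0.706).

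Mcoln1 encodes the calcium channel mucolipin, through which lysosomal calcium release activates TFEB. Mcoln1 was at 15.6, 15.7 and 9.90 FPKM under vehicle against 11.7, 15.4 and 12.2 in the treated libraries, with complete overlap and a log2 fold change of -0.04 (limma adjusted p = 0.896). After median-ratio scaling Mcoln1 passed at 0.72 (adjusted p = 0.0437). Scarb2, which encodes the membrane receptor that carries β-glucocerebrosidase to lysosomes, was at 72.7 to 74.8 FPKM in vehicle and at 57.5 to 62.4 in treated libraries, without overlap but not past the test (-0.30, limma adjusted p = 0.19). Cd63, a tetraspanin gene of late endosomes and exosomes, was at 70.1, 30.8 and 71.5 FPKM in the treated libraries, lowest in ONX-0914 3, against 53.7 to 73.3 in vehicle. Cd63 had a log2 fold change of -0.17 over all 3 (limma adjusted p = 0.672) and stood at -0.96 in that library alone. Cln3, a lysosomal membrane protein gene mutated in Batten disease, had a log2 fold change of -0.56 (limma adjusted p = 0.137).

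Among the regulators, Tfeb did not pass the test and Tfe3 was low in 2 of the 3 treated libraries. Tfeb, on chromosome 17 from 47737030 to 47792419, was at 2.56, 3.66 and 2.09 FPKM under vehicle against 2.32, 2.12 and 2.82 in the treated libraries. The log2 fold change was -0.12 (limma adjusted p = 0.693, SE 0.25), and 0.47 after median-ratio scaling (adjusted p = 0.186). Tfe3, on the X chromosome from 7762560 to 7775202, was at 6.96, 5.12 and 4.41 FPKM in vehicle and at 0.50, 5.21 and 0.78 in the treated libraries. ONX-0914 3 lay within the vehicle range, so the log2 fold change of -1.33 (limma adjusted p = 0.0494, SE 0.49) came with overlapping groups; it was -1.97 without ONX-0914 3 (adjusted p = 0.000196) and -0.05 in it alone. After median-ratio scaling Tfe3 did not pass (-0.80, limma adjusted p = 0.205), and it was called lower in only 5 of the 19 settings. Transcript levels carry no information on where the TFEB and TFE3 proteins were. Grn, whose product progranulin is split into granulins in the lysosome, was at 107, 107 and 99.6 FPKM in vehicle and at 69.6, 105 and 59.6 in treated libraries (-0.46, limma adjusted p = 0.138), and passed without ONX-0914 3 (-0.69, adjusted p = 0.00545).

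Members with the promoter letters were found on both sides of the test. Of the 10 members with CACGTG in their window 4 were called lower and 6 not, and of the 5 with TCACGTGA 2 (Ctsd and Gla) were called lower and 3 (Cln3, Mcoln1 and Ctsa) not. Over the 28 members with a window, 14 were called lower and 14 not. None of the 10 was among the 5 genes called lower in every setting, and of those 5 the windows of Lipa, Psap and Gm2a were at hand while Ctsb and Asah1 had none. These counts are a description of letters in one window per annotated start and say nothing of binding.

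Lysosomal genes outside the 31 were taken from 5 lists, of which 131 genes were tested. Of these, 78 fell and 1 rose as deposited, with a median log2 fold change of -0.86, and after median-ratio scaling 35 were lower and 13 higher. These are 59.5% lower and 0.763% higher as deposited, beside 43.5% and 2.56% of all tested genes, and 26.7% and 9.92% after scaling, beside 13.7% and 14.3%; the counts of each list are to be read against the same shares. Of 36 other soluble enzymes and activators 20 fell and none rose, and after median-ratio scaling 9 were lower and 3 higher. Ctso, the cathepsin O gene, had a log2 fold change of -2.08 (limma adjusted p = 0.00309). Of 26 other membrane proteins and transporters 18 fell and none rose, and after the scaling 8 were lower and 1 higher. Laptm5, a lysosomal protein gene of blood-derived cells, was at 25.4, 22.4 and 27.97 FPKM under vehicle against 1.01, 4.17 and 1.32 in the treated libraries (-3.18, limma adjusted p = 0.00122), and the sialomucin gene Cd164 had a log2 fold change of -2.46.

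Of 16 genes of the vacuolar proton pump, which acidifies the lysosome, 8 fell and 1 rose, but after median-ratio scaling 3 were lower and 5 higher. Atp6v1f, a subunit of the ATP-hydrolysing sector, was at 229, 242 and 274 FPKM under vehicle against 422, 295 and 415 in the treated libraries (0.59, limma adjusted p = 0.0425). It passed after median-ratio scaling (1.40, limma adjusted p = 0.0178) and did not pass after length correction (0.48, adjusted p = 0.0604). The catalytic subunit gene Atp6v1a went the other way, at -2.37 (limma adjusted p = 0.00201), and Atp6v1b2 was at -1.83. Of 27 genes for mannose 6-phosphate tagging and lysosomal sorting 19 fell and none rose, with the adaptor subunit gene Ap1g1 and the cargo receptor gene Mcfd2 both at -1.98; after median-ratio scaling 8 were lower and 2 higher, and Mcfd2 did not pass (limma adjusted p = 0.0691). Of 26 genes for nutrient sensing and TFEB control 13 fell and none rose, or 7 and 2 after the scaling. The calcineurin subunit genes Ppp3r1 and Ppp3cb, of the phosphatase that dephosphorylates TFEB, were at -2.87 and -1.94 (limma adjusted p = 0.00457 and 0.00829).

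**Figure D4:**
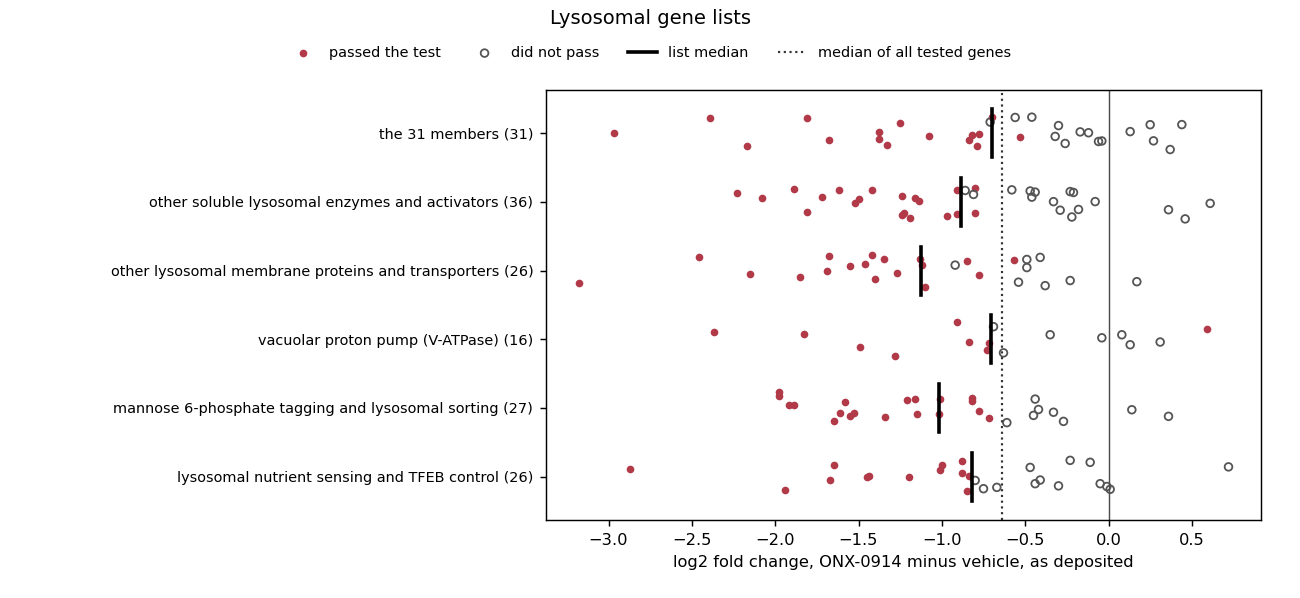
Log2 fold change (ONX-0914 minus vehicle, as deposited) of each tested gene in the 31 members and the 5 other lysosomal lists, with the number tested in brackets. Filled red points passed limma's test, open points did not, the black bar is the list's median and the dotted line the median of all tested genes. The members' median of -0.70 lies near that line, and the other lists' medians lie between -0.71 and -1.13.

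Macrophages are rich in lysosomes, and many of their markers were lower too. The shares of all tested genes to set beside each count are 43.5% lower and 2.56% higher as deposited. After median-ratio scaling these shares are 13.7% and 14.3%. Of 11 tested Kupffer cell markers 7 fell and none rose, with summed levels of 1160 to 1820 FPKM in vehicle and 629 to 1080 in treated libraries; after median-ratio scaling 3 were lower. Of 11 tested markers shared by recruited monocyte-derived or lipid-associated macrophages 7 fell and none rose, with sums of 1190 to 1330 and 840 to 1410, and after the scaling 3 were lower and 3 higher. No marker of either list was below 0.1 FPKM in all libraries. Adgre1, the F4/80 macrophage gene, had a log2 fold change of -2.04, and -1.37 after the scaling. Gpnmb, the largest fall of its list, had one of -3.73, and -3.04 after the scaling. Clec4f, a Kupffer cell lectin gene, was at -0.01. Marco (0.14), Folr2 (0.19), Cd9 (0.20), Spp1 (0.38) and Fabp5 (0.72) were positive as deposited, and none of them passed. Cd9, Spp1 and Fabp5 were the 3 called higher after the scaling (1.01, 1.19 and 1.54). All 12 endothelial markers fell, from sums of 248 to 255 FPKM to sums of 36.4 to 66.1, and 10 of the 12 were lower after the scaling. The part of these cells in the falls of Lipa, Psap, Gm2a, Asah1 and Ctsb was not tested.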

How the data were processed

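Liver RNA from 6 libraries was analysed. Per the submitters' processing notes, the tools were HISAT2 2.0.1, edgeR, featureCounts 1.6.0, cutadapt 1.11 and FastQC 0.11.5, the builds GRCm38 and mm10, with no role given. The authors deposited FPKM values with 2 decimals for 22851 genes. No source names the unit; FPKM was inferred, since values are fractional and low values fall with gene length. Columns were matched to samples by title. Depth was estimated from short genes (over 160 and up to 400 bases), whose value times length piles up at 1 read. The pile-up was sought only in a preset window, which bounds the estimate.

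The members and lists were chosen with earlier results of these data known. Genes above 1 in at least 3 libraries (10743) entered limma 3.58.1 (R 4.3.3, variance trend, Benjamini-Hochberg adjustment over all of them) as log2(FPKM + 1), a scale that understates the change of low genes. Described in full were members called by the fit, with Tfeb, Tfe3, Mcoln1, Lamp1 and Lamp2, and up to 2 rises and 2 falls per other list, 1 of which is not reported here. Length correction subtracted a lowess curve of a library's difference to the mean vehicle level against transcript length (longest coding transcript, GENCODE M21, matched to 98.2% of tested genes), and so centred each library too. The fit was tested on simulated data.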

Additional observations from a re-analysis of the deposited data

How the results depend on the processing

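In all, 18 alternatives were run, of which length correction by median transcript length was added after the data were seen; the planned count tests were not run, since the values are not counts. Lipa, Psap, Gm2a, Asah1 and Ctsb kept their direction and their call in each. Read depth is only estimated, and for members near 2 FPKM, Ids and Tfeb, the added 1 understates changes. The cause of each change listed was not tested.

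After median-ratio scaling all genes numbered 1538 higher and 1471 lower, members 6 and 6 with a median of 0.12, and other lysosomal genes 13 and 35. The sign turned for Lamp1 (0.04), Lamp2 (0.12), Ctsh (0.50), Gaa (0.52), Hexa (0.27), Neu1 (0.73), Scarb2 (0.51), Tpp1 (0.07), Cd63 (0.63), Cln3 (0.13), Mcoln1 (0.72), Tfeb (0.47) and Grn (0.35). Quantile normalized, these counts were 1118 and 1334, 1 and 9 with a median of -0.13, and 4 and 32, and the sign turned for Gaa (0.37), Gla (0.05), Neu1 (0.53), Scarb2 (0.04), Cd63 (0.17), Cln3 (0.25), Mcoln1 (0.63) and Tfeb (0.69). After length correction they were 1024 and 1231, 4 and 6 with a median of 0.01, and 4 and 28, and the sign turned for Lamp2 (0.13), Ctsh (0.05), Gaa (0.58), Man2b1 (0.01), Neu1 (0.60), Scarb2 (0.61), Tpp1 (0.12), Cln3 (0.22), Mcoln1 (0.49), Tfeb (0.49) and Grn (0.16). By median transcript length they were 1135 and 1323, 4 and 6 with a median of -0.01, and 5 and 30, with Lamp2 at 0.000514, Gaa 0.10, Hexa 0.12, Man2b1 0.07, Neu1 0.71, Scarb2 0.63, Tpp1 0.19, Cd63 0.18, Mcoln1 0.14 and Tfeb 0.08. With equal sums 171 genes were higher, no other lysosomal gene was (0), and Ctsa was at -0.03.

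With the replicate number as a block 604 genes were higher, as were 1 member (Ctsl) and 4 other lysosomal genes, and Cd63 was at 0.13 and Tfeb at 0.10; Hexa lost its call (limma adjusted p = 0.0955) and Tpp1, Cln3 and Grn gained one as lower (0.0079, 0.0466 and 0.0256). Groups share only the numbers 1 and 4, whose deviations from the group means correlated at 0 and 0.13, so the numbers are not shown to pair the samples. With ONX-0914 3 alone against vehicle 2992 genes were lower, no other lysosomal gene was higher (0), the members' median was -0.44, and Ctsa (-0.05), Gaa (0.09), Idua (-0.02), Naglu (-0.35), Mcoln1 (0.19) and Grn (0.01) changed sign. Other lysosomal genes higher numbered 0 with no filter and 0 with no variance trend. Lamp1 lost its call with no filter (limma adjusted p = 0.0541) and Hexa with no variance trend (limma adjusted p = 0.0553).

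Leaving out 1 library at a time gave 92 to 740 genes higher and 2590 to 6514 lower, 0 to 1 members higher and 9 to 19 lower, and 0 to 4 other lysosomal genes higher and 49 to 99 lower, the upper ends without ONX-0914 3. It gave Ctsa -0.02 to 0.22, Naglu -0.06 to 0.55, Neu1 -0.12 to 0.00776, Cd63 -0.38 to 0.22, Mcoln1 -0.25 to 0.06 and Tfeb -0.26 to 0.04.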
